A study of Mus musculus with 6 samples.

Results

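The 10 immediate early genes of interest were followed in RNA from mouse lacrimal glands, chosen by name from the 50686 genes of the table and matched to it by GRCm38 gene symbol. They are the FOS family genes Fos and Fosb, the JUN family genes Jun, Junb and Jund, Atf3, Egr1, the orphan nuclear receptor genes Nr4a1 and Nr4a2, and Ier2. Tear-secreting glands were taken from adult mice at 13 weeks of age and frozen, and their total RNA was sequenced after removal of ribosomal RNA. Of the 6 libraries, 3 came from wild-type mice and 3 from Eda-/- mice, titled Tabby in the labels, and all 6 carried the strain label C57BL/6. Tabby mice lack ectodysplasin A, a signal of the TNF family, in every tissue and from development on, so an altered formation of the gland and any later effect in the adult cannot be told apart. The labels do not say whether the groups were littermates and do not give their sex. Any difference in genetic background between the groups therefore cannot be told apart from the effect of Eda. Each library mixes all cell types of the tissue.

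Immediate early genes are switched on within minutes of a signal, from factors already present in the cell and without new protein synthesis. Kinases of the ERK, JNK and p38 pathways activate factors waiting at their promoters, among them serum response factor (SRF) with ELK partners and the cyclic AMP response element binding protein CREB, and the mRNAs are then removed quickly. Most of the products are transcription factors: FOS, JUN and ATF proteins pair into the AP-1 dimer. In secretory glands they respond to secretagogues and growth factors, and in many tissues also to stress and handling.

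Nr4a2 fell by 0.92 on the log2 scale in the Eda-/- glands, and Junb fell by 0.42. Jun, Atf3 and Fos were lower in all 3 Eda-/- libraries than in any wild-type library, at 0.357, 0.332 and 0.433 of the wild-type level, but none of these differences passed the test. Jund, Nr4a1 and Ier2 lay within 0.23 of no change on the log2 scale and did not pass. Fosb and Egr1 had at most 11 counts in any library and were not tested. In numbers, 8 of the 10 genes were tested, and 2 of them passed lower in the quasi-likelihood test of edgeR (adjusted p under 0.05 by Benjamini-Hochberg over all 13178 tested genes), against 6.90% of all tested genes. No member passed higher, against 6.21% of all tested genes; at an unadjusted p under 0.05 Jund was higher, and DESeq2 and limma-voom also passed 0 members higher. The 3 Eda-/- libraries lay wholly below the 3 wild-type libraries in 5 of the 10 members, all 5 among the 8 tested, and in 16.2% of all tested genes. The median log2 fold change was -0.67 over the 8 tested members and 0.00 over all tested genes.

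Reads of Eda itself numbered 41, 48 and 42 in the 3 controls, and 2, 0 and 0 in Eda-/- glands. Libraries held 11894395 to 15700899 counts, and the values below are CPM, counts relative to library size after scaling by the trimmed mean of M-values (TMM). The acinar marker list, led by Mucl2 and Scgb2b24, summed to 66680 to 71580 CPM in wild-type and 129000 to 177200 in Eda-/- libraries. Of its 10 genes 4 passed higher, 1 passed lower and 5 did not pass, so the sum does not speak for the whole list. Of all tested genes 6.21% passed higher and 6.90% lower. All 8 of 8 T cell markers lay under 0.5 CPM. Scaled by library totals instead, all genes had a median of -0.28, 4365 genes passed lower and 246 higher, against 909 and 819 with TMM. Under that scaling 5 members passed lower: Nr4a2, Junb, Jun, Fos and Ier2.

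**Figure D1:**
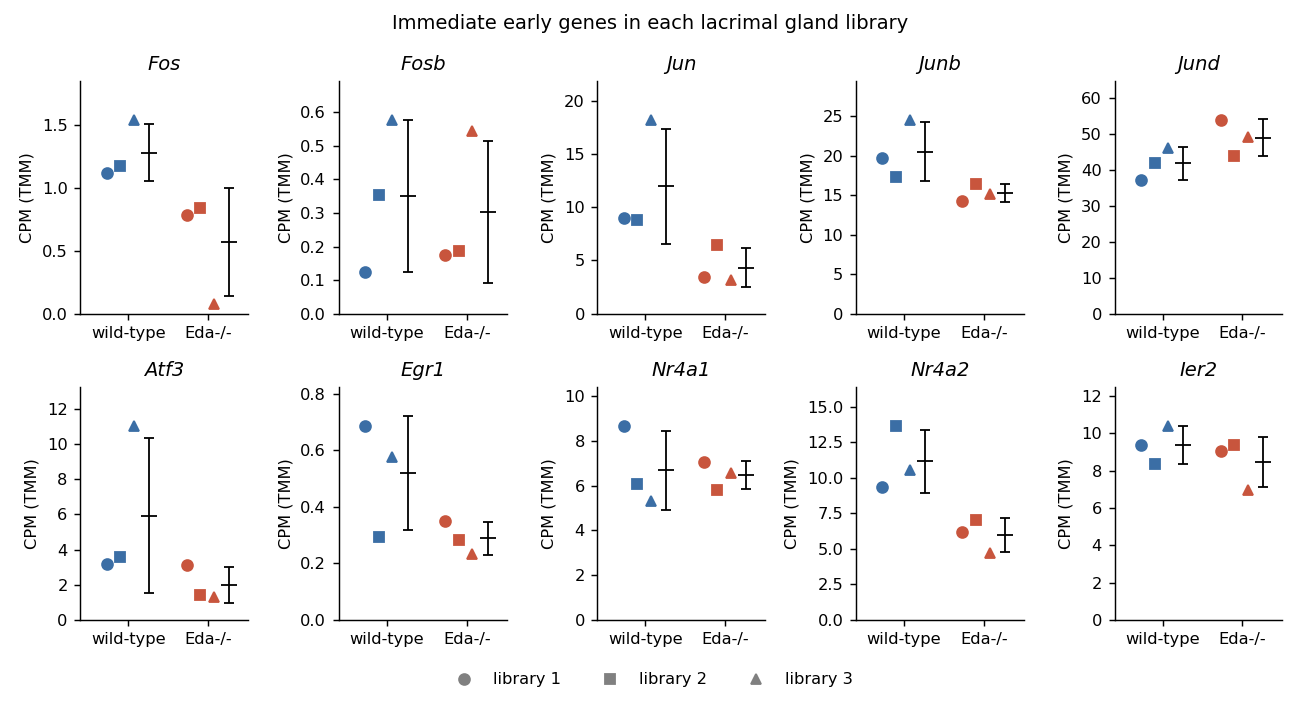
TMM-scaled CPM (y axis, from 0, 1 scale per gene) of the 10 immediate early genes in the 3 wild-type and 3 Eda-/- libraries, 1 symbol per library, with the mean and SD of each group as a bar (n = 3). For Nr4a2, Junb, Jun, Atf3 and Fos the points of the groups do not overlap, and wild-type 3 is the highest library for Jun at 18.2 and for Atf3 at 11.04.

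Nr4a2 (ENSMUSG00000026826.13, GRCm38 chromosome 2, 57106830 to 57124003, minus strand) encodes NURR1, a nuclear receptor without a known physiological ligand that is best known from dopamine neurons and is induced by cyclic AMP and inflammatory signals. Its level was 9.35, 13.6 and 10.5 CPM in wild-type 1, 2 and 3 and 6.20, 7.03 and 4.68 in Eda-/- 1, 2 and 3. Every Eda-/- library lay below every wild-type library. The means were 11.2 ± 2.22 and 5.97 ± 1.19 CPM (SD, n = 3 each), a log2 fold change of -0.92 (SE 0.17, 95% interval -1.29 to -0.54, edgeR adjusted p = 0.0032). Nr4a2 passed in each of 18 alternative analyses, with log2 fold changes from -1.20 to -0.74 and adjusted p from 1.3e-08 to 0.025. Its rank by p was 467 of the 13178 tested genes.

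Nr4a1 (ENSMUSG00000023034.6, chromosome 15, 101254269 to 101274795, plus strand) encodes NUR77, a close relative that binds the same DNA element as NURR1. It stood at 8.67, 6.06 and 5.33 CPM in wild-type 1, 2 and 3 and at 7.07, 5.81 and 6.55 in Eda-/- 1, 2 and 3, so the groups overlapped. The log2 difference was -0.04 (95% interval -0.42 to 0.34, edgeR adjusted p = 0.905), and it was 0.19 without wild-type 1 and 0.03 without Eda-/- 2. Wild-type 1 was the highest library for Nr4a1 and the lowest of its group for Nr4a2. The ratio of Nr4a2 to Nr4a1 counts per length, which does not depend on the scaling of libraries, came to 0.933, 1.95 and 1.71 for wild-type 1, 2 and 3 and to 0.758, 1.05 and 0.618 for Eda-/- 1, 2 and 3. These ranges overlap, and an exact two-sided permutation test gave p = 0.2 (0.2 after Benjamini-Hochberg adjustment over 5 ratios). The third receptor of the family, Nr4a3, was low, at 1.01 ± 0.617 and 1.01 ± 0.216 CPM (SD, n = 3 each). Its log2 difference of -0.01 did not pass and had a wide 95% interval, -0.94 to 0.92.

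The promoters of these 2 receptor genes and of Junb are shown because Nr4a2 and Junb fell while Nr4a1 did not pass, and all 3 hold letters that CREB and AP-1 family proteins can bind. Each window runs from 250 bases before to 50 bases after the RefSeq transcription start (RefSeq, GRCm38.p6), 5′ to 3′ on the gene's strand, and capitals mark the matches. The windows lie at chr2:57123954-57124253 on the minus strand for Nr4a2, chr15:101266596-101266895 on the plus strand for Nr4a1 and chr8:84978699-84978998 on the minus strand for Junb.
Nr4a2: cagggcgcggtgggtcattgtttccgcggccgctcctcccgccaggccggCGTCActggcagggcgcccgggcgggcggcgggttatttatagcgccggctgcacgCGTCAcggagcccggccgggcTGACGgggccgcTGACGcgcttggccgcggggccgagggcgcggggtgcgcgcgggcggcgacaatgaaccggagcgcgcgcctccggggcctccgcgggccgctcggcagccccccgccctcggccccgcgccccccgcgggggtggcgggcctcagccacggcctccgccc
Nr4a1: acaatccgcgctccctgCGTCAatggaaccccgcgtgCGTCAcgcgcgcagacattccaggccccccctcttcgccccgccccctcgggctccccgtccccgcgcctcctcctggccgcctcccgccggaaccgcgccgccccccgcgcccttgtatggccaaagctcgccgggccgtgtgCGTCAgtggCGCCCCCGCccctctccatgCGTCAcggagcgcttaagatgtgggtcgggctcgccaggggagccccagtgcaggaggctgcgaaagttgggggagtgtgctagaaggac
Junb: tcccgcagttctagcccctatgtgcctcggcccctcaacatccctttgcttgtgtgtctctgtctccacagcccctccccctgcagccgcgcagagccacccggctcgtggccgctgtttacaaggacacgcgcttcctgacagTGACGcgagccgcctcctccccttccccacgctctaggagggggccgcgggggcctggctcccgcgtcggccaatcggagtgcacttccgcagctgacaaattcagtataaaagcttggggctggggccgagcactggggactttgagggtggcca

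The 6 motifs below were searched on both strands. The core of the cyclic AMP response element, TGACG, occurred 4 times in the Nr4a2 window, 4 times in the Nr4a1 window and 1 time in the Junb window. The nearest to the start lay 107 to 111 bases upstream in Nr4a2, 36 to 40 bases upstream in Nr4a1 and 102 to 106 bases upstream in Junb. The Nr4a1 window also held an EGR element, 52 to 60 bases upstream on the minus strand. Windows were searched for 8 of the 10 members. Member windows on chromosome 18, where Egr1 lies, were left out of the search, and none was found for Ier2. The shares below therefore say nothing of Egr1 or Ier2. Of these 8, 6 held TGACG, against 20.8% of 32851 RefSeq windows of the same length; Jun and Jund did not. The EGR element (GCGGGGGCG or GCGTGGGCG) was found in 2 of 8, Fosb and Nr4a1, against 3.47% of all windows. The full element TGACGTCA, of which TGACG is a part, the AP-1 site TGANTCA, the NR4A element AAAGGTCA and the CArG box bound by SRF were found in 0 of 8, and in 1.79%, 7.81%, 1.51% and 1.63% of all windows. A match describes the letters only, and elements outside these windows or spelled otherwise were not searched. The GC content of the member windows ran from 46.7% for Jund to 81.7% for Nr4a2. The shares of all windows were not matched for it. The RefSeq start used for Jund lies upstream of the gene start in GENCODE, so its window may miss the promoter next to the gene. The windows of Nr4a1 and Atf3 lie inside the GENCODE gene spans, downstream of the outermost start, and say nothing of the bases before that start.

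Of the 3 JUN genes Junb alone passed in edgeR. Junb (ENSMUSG00000052837.6, chromosome 8, 84974484 to 84978718, minus strand) encodes an AP-1 subunit that often restrains growth. It stood at 19.7, 17.2 and 24.5 CPM in wild-type 1, 2 and 3 and at 14.2, 16.4 and 15.1 in Eda-/- 1, 2 and 3. The groups did not overlap, although wild-type 2 and Eda-/- 2 lay close together. The means were 20.5 ± 3.71 and 15.2 ± 1.09 CPM (SD, n = 3 each), and Junb fell by 0.42 on the log2 scale (SE 0.12, edgeR adjusted p = 0.0355). It did not pass when wild-type 1, wild-type 3 or any 1 Eda-/- library was left out, and without wild-type 3 the estimate was -0.27 (adjusted p = 0.164). DESeq2 (adjusted p = 0.1) and limma-voom (0.0508) did not pass it either. An exon of Junb overlaps one of Prdx2 on the opposite strand, which had 198 to 462 counts per library and a log2 difference of -0.26 that did not pass, and the strand setting of the counting is not given.

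Jun (ENSMUSG00000052684.4, chromosome 4, 95049034 to 95052222, minus strand, a single exon) encodes c-Jun, the AP-1 subunit activated by JNK. Its level was 8.98, 8.76 and 18.2 CPM in wild-type 1, 2 and 3 and 3.41, 6.47 and 3.12 in Eda-/- 1, 2 and 3. All Eda-/- libraries lay below all wild-type libraries, and wild-type 3 stood far above its companions, as Eda-/- 2 did above its own. The log2 fold change was -1.48 with a wide interval, -2.74 to -0.23, and did not pass (SE 0.48, edgeR adjusted p = 0.132). Without wild-type 3 the difference was smaller, -1.05, and passed (adjusted p = 0.0179). Jun also passed in DESeq2 (-1.47, adjusted p = 6.61e-05) and in edgeR without robust fitting (adjusted p = 0.0128), and not in limma-voom (0.158). Its exon overlaps one of the antisense gene Junos, which had 14 to 34 counts per library. The strand setting bears on reads of that stretch, in a direction that is not known.

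Jund (ENSMUSG00000071076.6, chromosome 8, 70698949 to 70700616, plus strand, a single exon) encodes the JUN protein that most resting cells make steadily. It stood at 37.2, 42.0 and 46.2 CPM in wild-type 1, 2 and 3 and at 54.0, 43.8 and 49.3 in Eda-/- 1, 2 and 3, and the groups overlapped. The log2 difference was 0.23 (unadjusted 95% interval 0.03 to 0.43, edgeR adjusted p = 0.135) with TMM and -0.05 with library totals, so its sign depended on the scaling. Its antisense gene Gm11175 overlaps the exon of Jund, had 22 to 38 counts per library and was higher in all 3 Eda-/- libraries without passing (0.52), and the strand setting bears on Jund as it does on Junb and Jun.

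Within each library the 3 JUN genes can be set against one another without any scaling. Per length, Jun made up 8.37%, 7.75% and 13.0% of the JUN family total for wild-type 1, 2 and 3, but 2.70%, 5.73% and 2.64% for Eda-/- 1, 2 and 3. Junb made up 23.6% ± 2.22 and 17.8% ± 2.26, and Jund 66.7% ± 4.16 and 78.5% ± 3.91 (SD, n = 3 each). The log2 ratio of Jun to Jund differed by -1.69 between the groups (Eda-/- minus wild-type), that of Junb to Jund by -0.64 and that of Jun to Junb by -1.05. In each of these 3 ratios the groups did not overlap, and the exact two-sided permutation test gave p = 0.1, the smallest that 3 against 3 libraries allow (0.125 after Benjamini-Hochberg adjustment over 5 ratios).

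**Figure D2:**
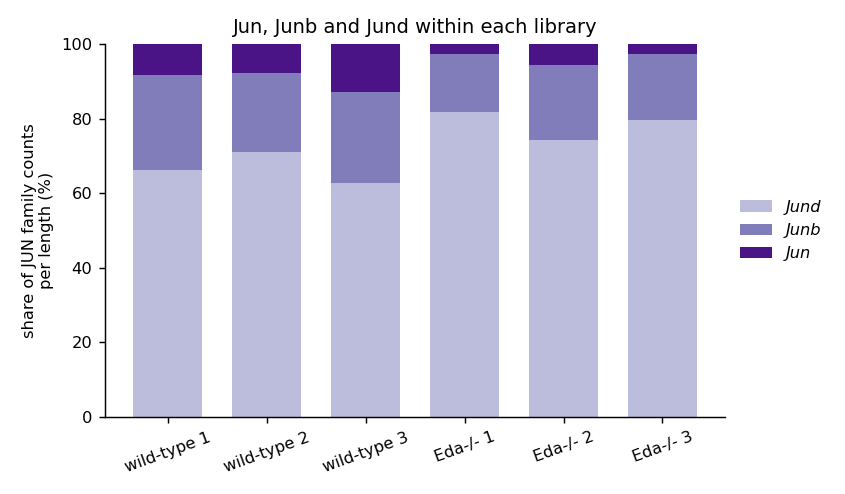
Share (y axis, percent, 0 to 100) of Jun, Junb and Jund in the summed JUN family counts per exon length, 1 stacked bar per library. Jun takes 7.75% to 13.0% in the wild-type libraries and 2.64% to 5.73% in the Eda-/- libraries, and Jund is the largest part of every bar.

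Atf3 (ENSMUSG00000026628.13, chromosome 1, 191170296 to 191218039, minus strand) encodes a stress-induced partner of the JUN proteins that often represses transcription. It stood at 3.18, 3.59 and 11.04 CPM in wild-type 1, 2 and 3 and at 3.14, 1.41 and 1.33 in Eda-/- 1, 2 and 3. The groups were apart by a hair, since wild-type 1 and Eda-/- 1 were nearly level, and wild-type 3 stood far above the rest of its group. The log2 fold change was -1.59 (SE 0.76, 95% interval -3.62 to 0.43, edgeR adjusted p = 0.273), and -0.79 without wild-type 3 (adjusted p = 0.124). Of the 8 tested members Atf3 varied most among replicates, with a biological coefficient of variation of 55.4%, against 37.0% for Jun and a median of 10.1% over all tested genes.

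Fos (ENSMUSG00000021250.13, chromosome 12, 85473890 to 85477273, plus strand), the classical partner of c-Jun, was rare in these glands. Its counts were 18, 20 and 24 for wild-type 1, 2 and 3, and 9, 9 and 1 for Eda-/- 1, 2 and 3. The means were 1.28 ± 0.228 and 0.569 ± 0.426 CPM (SD, n = 3 each), with no overlap and the lowest value in Eda-/- 3. The log2 fold change of -1.21 did not pass (SE 0.47, edgeR adjusted p = 0.113) and was -0.64 without Eda-/- 3 (adjusted p = 0.345). Fosb (ENSMUSG00000003545.3, chromosome 7, 19302696 to 19310051, minus strand), whose product also joins AP-1, had 2, 6 and 9 against 2, 2 and 7 counts. The wild-type to Eda-/- ratio of normalised Fosb counts was 1.11 and its exact binomial 95% interval, for counting error alone, ran from 0.491 to 2.62, so no difference was detectable at this depth.

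**Figure D3:**
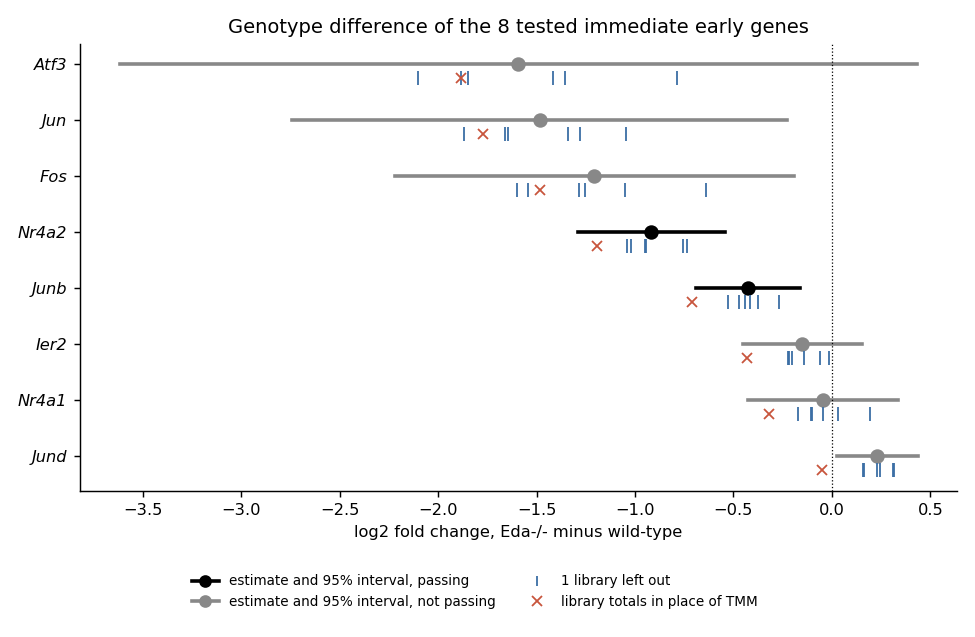
Log2 fold change (x axis, Eda-/- minus wild-type) of the 8 tested immediate early genes, with 95% intervals from edgeR (black where the gene passed, grey where not), the estimates with 1 library left out (blue ticks) and the estimate with library totals (red crosses). Nr4a2 at -0.92 and Junb at -0.42 pass, the intervals of Atf3, Jun and Fos are the widest, and Jund moves from 0.23 to -0.05 with library totals.

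Ier2 (ENSMUSG00000053560.4, chromosome 8, 84661331 to 84662852, minus strand, a single exon) encodes a small nuclear protein induced by growth factors. It stood at 9.35, 8.35 and 10.4 CPM in wild-type 1, 2 and 3 and at 9.08, 9.37 and 6.94 in Eda-/- 1, 2 and 3. Eda-/- 3 was the lowest library and the other 5 were mixed. The log2 difference was -0.15 (95% interval -0.45 to 0.15, edgeR adjusted p = 0.541), and -0.02 without Eda-/- 3.

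Per length, Jund was the most abundant member in wild-type glands at 25.1 ± 2.72 CPM per kilobase of exon (SD, n = 3), followed by Junb at 8.90 ± 1.61 and Ier2 at 6.15 ± 0.673. Jun at 3.76 ± 1.70, Atf3 at 2.76 ± 2.05, Nr4a2 at 2.75 ± 0.546 and Nr4a1 at 1.91 ± 0.50 came next, and their libraries overlapped from one neighbour to the next. Fos followed at 0.544 ± 0.0967, below every library of Nr4a1, and Fosb at 0.0564 ± 0.0363 was the lowest. In Eda-/- glands Jund, Junb and Ier2 again led, at 29.4 ± 3.06, 6.63 ± 0.474 and 5.56 ± 0.873. Below them Nr4a1 at 1.85 ± 0.181 now stood above Nr4a2 at 1.47 ± 0.294, Jun at 1.36 ± 0.582 and Atf3 at 0.909 ± 0.477, again with overlap between Nr4a1, Nr4a2 and Jun.

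Wild-type 3 carried much of the spread among the controls. Averaged over the 8 tested members, log2 CPM relative to the wild-type mean came to -0.15, -0.14 and 0.28 for wild-type 1, 2 and 3 and to -0.48, -0.51 and -1.01 for Eda-/- 1, 2 and 3. The members did not share 1 pattern inside the groups. In wild-type 3 the deviation from the group mean was 1.11 for Atf3, 0.69 for Jun, 0.27 for Junb, -0.07 for Nr4a2 and -0.29 for Nr4a1. Over the 6 libraries, after each group's mean was removed, 9 of 28 member pairs had a Pearson r above 0.5 (Jun with Junb at 0.85, Fos with Ier2 at 0.90) and 1 had an r below -0.5 (Jun with Nr4a1 at -0.68). These 6 points share 2 fitted group means and are a description only. The 5 genes closest to the members' mean deviation by that measure were Pigb (r = 0.996), Col1a1 (0.992), Ppp2r5a (0.99), Ablim1 (0.9885) and Kat2a (0.987), and 138 of the 7868 candidate genes exceeded 0.9. With a prior count of 0.5 in place of 2, Pigb, Col1a1 and Ppp2r5a were again among the closest 5, and B2m and Mvb12a took the places of Ablim1 and Kat2a.

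Several marker sums were also highest in wild-type 3 and low in the Eda-/- libraries, among them those of macrophages, myoepithelial cells, fibroblasts and endothelium. The summed level of 10 macrophage markers was 96.2, 110 and 175 CPM in wild-type 1, 2 and 3 and 49.98 to 67.0 in Eda-/- libraries. In edgeR 5 of the 10 fell (Csf1r, C1qa, C1qc, Tyrobp and Mrc1), with none at 0, while DESeq2 passed 9 and limma-voom 3. C1qa and C1qc did not pass without any 1 Eda-/- library. Of all tested genes 6.90% passed lower and 6.21% higher, the shares for each marker count here. The stress-induced Hspa1a and Hspa1b, which encode the chaperone HSP70, together stood at 5.74, 6.65 and 18.3 CPM in wild-type and 2.34 to 4.59 in Eda-/- libraries. The whole list of 13 heat shock genes did not share this pattern. It summed to 692.5, 641.2 and 840.5 CPM in wild-type 1, 2 and 3 and to 855.3, 712.3 and 569 in Eda-/- 1, 2 and 3. Summed myoepithelial markers ran from 143.7 to 189.4 CPM in wild-type and from 107.8 to 125.1 in Eda-/- libraries, with 4 of 9 tested lower. Summed fibroblast markers ran from 216 to 281 and from 172 to 197 CPM, with 4 of 10 lower. Summed endothelial markers ran from 58.3 to 72.9 and from 50.9 to 54.7, with 2 of 9 tested lower and 1 higher. The median log2 fold change of the tested endothelial markers was 0, so their sum does not speak for the whole list. Red cell markers, highest in wild-type 2, summed to 19.5 to 29.1 and 5.15 to 14.7 CPM, and neutrophil markers to at most 1.22, with Cxcr2 and Retnlg at 0. Their part in the values of the immediate early genes was not tested. In whole glands fewer cells of a type and less RNA per cell cannot be told apart.

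The wider early response was read from 7 lists of 145 genes, of which 120 were tested: 11 passed lower, 9.17%, and 2 higher, 1.67%, beside 6.90% and 6.21% of all tested genes, with a median log2 fold change of -0.14. The counts of each list below are small and stand against those same shares. Without 1 library at a time the lower count was 6 to 12, being 6 without Eda-/- 1 and 7 without Eda-/- 3, and the higher count 0 to 2. Among other immediate early transcription factors 2 of 16 tested genes passed lower and none higher (median -0.12). Maff, a small Maf protein, stood at 2.31 ± 0.218 CPM in wild-type and 1.15 ± 0.15 in Eda-/- glands (SD, n = 3 each) and fell by 1.004 on the log2 scale (edgeR adjusted p = 0.0204), and Cebpd, an acute phase factor, fell by 0.87 on the log2 scale (adjusted p = 0.037). Maff did not pass without wild-type 1, Eda-/- 2 or Eda-/- 3, and Cebpd did not pass without wild-type 2, wild-type 3, Eda-/- 1 or Eda-/- 3. Without Eda-/- 3 none of the list passed lower, and without wild-type 2 or wild-type 3 only 1 gene did. Without wild-type 3, Klf10 passed higher (0.50 on the log2 scale, edgeR adjusted p = 0.0337). Irf1 passed lower without wild-type 1 (-0.91, adjusted p = 0.0031), Nfil3 without Eda-/- 1 (-0.88, 0.0352) and Per1 without Eda-/- 2 (-0.69, 0.0259). Myc (-0.03), Klf4 (0.01) and Srf (-0.05) did not pass. Egr2, a relative of Egr1, was counted 4, 8 and 12 times in wild-type 1, 2 and 3 and 1 time in each Eda-/- library, too few to be tested.

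Among other early effectors 3 of 23 tested genes passed lower and 1 higher (median -0.31). Sgk1, a kinase that regulates ion channels, fell by 0.69, Btg1, an antiproliferative factor, by 0.46 and Errfi1, an inhibitor of the EGF receptor, by 0.41 on the log2 scale; the synaptic scaffold gene Homer1 rose by 0.32 with TMM (0.04 with library totals). Each of these 4 passed in 2 of the 6 analyses with 1 library left out, and none did without wild-type 3. Thbs1, the matrix protein thrombospondin, was at 6.42, 8.12 and 23.4 CPM in wild-type 1, 2 and 3 and at 2.42 to 3.23 in Eda-/- libraries and did not pass (-2.18, edgeR adjusted p = 0.159), whereas it passed without wild-type 3 (-1.38, adjusted p = 0.000224).

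Of the genes that shut the response down 1 of 14 tested passed lower and none higher (median -0.26). It was Zfp36l1, which binds and destabilises AU-rich mRNAs: it fell by 0.56 (SE 0.12, edgeR adjusted p = 0.00694), and it passed without each library in turn. Without wild-type 1, Dusp8 passed lower as well (-1.17, adjusted p = 0.0428). The related Zfp36 (-0.56, adjusted p = 0.0651) and the ERK and p38 phosphatase gene Dusp1 (-0.58, adjusted p = 0.0772) were lower in all 3 Eda-/- libraries and did not pass. Of 12 tested dimer partners of FOS and JUN none passed in edgeR, DESeq2 or limma-voom (median 0.01); 2 were lower at an unadjusted p under 0.05, and Maf passed lower without wild-type 1 (-0.50, edgeR adjusted p = 0.0262).

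Upstream, 2 of 30 kinases and factors passed lower and 1 higher (median -0.07). Rps6ka1, the kinase RSK1 that ERK activates and that phosphorylates FOS and SRF, stood at 55.2, 49.8 and 48.2 CPM in wild-type 1, 2 and 3 and at 19.2, 16.9 and 15.8 in Eda-/- 1, 2 and 3. It fell by 1.56 on the log2 scale (SE 0.10, edgeR adjusted p = 1.6e-08) and passed without each library in turn. Its relatives Rps6ka2 (0.24), Rps6ka3 (-0.25) and Rps6ka5 (-0.69) did not pass. Mef2c, a MADS box factor like SRF, fell by 0.58, and Mapk14, the kinase p38 alpha, rose by 0.29 with TMM (0.01 with library totals). Mef2c passed in 3 and Mapk14 in 1 of the 6 analyses with 1 library left out. The kinase gene Mapk3 (-0.20), the JNK gene Mapk8 (-0.07) and Creb1 (-0.14) did not pass.

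Of 12 tested genes known as targets of AP-1 or EGR proteins, 2 passed lower and none higher (median -0.25). Plau, the urokinase protease, stood at 7.29 ± 0.199 CPM in wild-type and 4.86 ± 0.138 in Eda-/- glands (SD, n = 3 each), fell by 0.58 on the log2 scale (edgeR adjusted p = 0.0126) and passed without each library in turn. Mt2 did not pass with all libraries but passed lower without wild-type 1 (-1.89, edgeR adjusted p = 0.0388) and without wild-type 2 (-1.92, adjusted p = 0.0398). The matrix protease gene Mmp3 fell by 1.36 and did not pass when any 1 Eda-/- library was left out. Of 13 heat shock genes 1 passed lower, Hspa1a (-1.90, adjusted p = 0.0176), which also did not pass without any 1 Eda-/- library, and none higher (median -0.09).

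**Figure D4:**
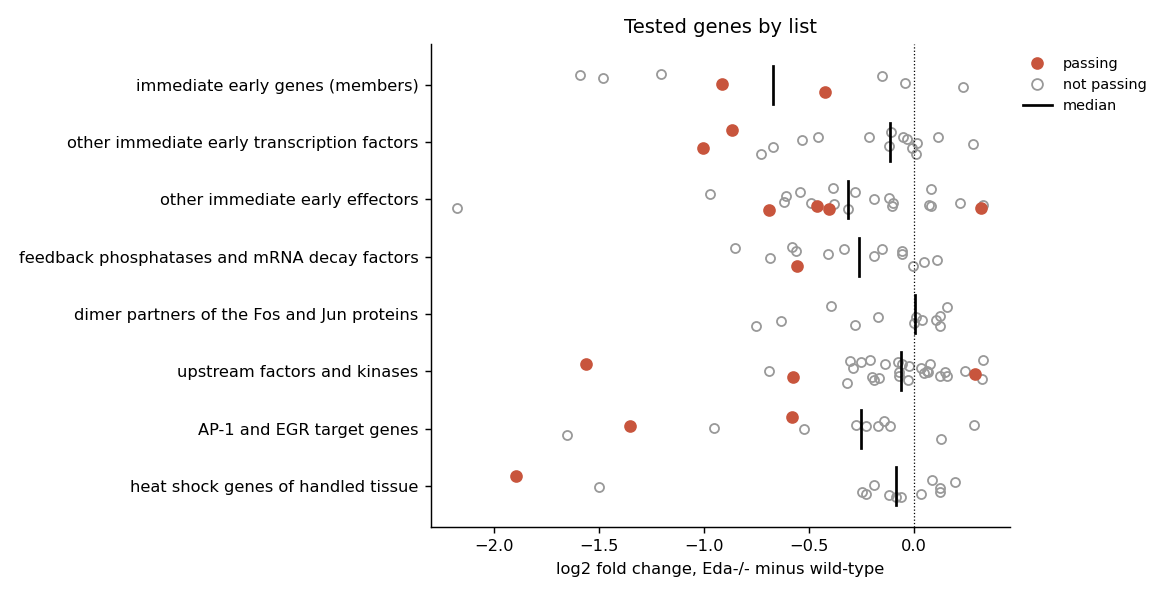
Log2 fold change (x axis, Eda-/- minus wild-type, TMM) of the tested genes of the 10 members and of 7 lists, 1 point per gene, filled where the gene passed edgeR's test, with the list median as a bar. The members' median is -0.67 over 8 genes, the list medians lie between -0.31 and 0.01, and Rps6ka1 at -1.56 stands apart among the upstream genes.

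Egr1 (ENSMUSG00000038418.7, chromosome 18, 34859823 to 34864984, plus strand), a zinc finger factor that is among the fastest of the immediate early genes, was barely detected. Its counts were 11, 5 and 9 for wild-type 1, 2 and 3, and 4, 3 and 3 for Eda-/- 1, 2 and 3. The groups overlapped in CPM, and the wild-type to Eda-/- ratio of normalised counts was 1.80, and its exact binomial 95% interval, for counting error alone, ran from 0.834 to 4.19. Tested without a filter on low counts, Egr1 had a log2 fold change of -0.83 and an edgeR adjusted p of 0.647.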

How the data were processed

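The authors deposited 1 table of raw read counts per gene, with a column per sample. The submitters' processing notes name the build GRCm38.p5 and the programs STAR, featureCounts, Trimmomatic, bcl2fastq and DESeq2. Versions, strand setting and the handling of multi-mapped reads are not given in the sources used. Per the labels' protocols, libraries were directional. Symbols, positions and exon lengths came from GENCODE M21 (GRCm38) by identifier: 50376 matched and 310 did not, and 0 columns were left unmatched. Promoter windows came from RefSeq (GRCm38.p6).

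Genes were filtered with filterByExpr (minimum count 10), scaled by TMM and tested with edgeR 4.0.16 in R 4.3.3, with robust quasi-likelihood fits on genotype alone, two-sided, with Benjamini-Hochberg adjustment over 13178 genes and a threshold of 0.05. SE was taken from the log2 fold change and the F statistic, as its size over root F. Log2 CPM used a prior count of 2. Replicate libraries differed by more than sampling noise (chi-square per degree of freedom 8.61 to 24.9), and the series' text calls them biological replicates. Alternatives were DESeq2 1.42.0, limma-voom (limma 3.58.1) with and without sample weights, other scalings and filters, and fits that were not robust. Others were removal of the 20 most abundant genes, a replicate block and each library left out. Offsets for GC content and exon length were added after the data were seen, as was leaving out libraries for the ratios. The ratios between members and their permutation tests were not planned in advance either. The edgeR script was tested on simulated data first. The members and lists were chosen with earlier results of these data known. All 10 members are named. Of each list, the passing genes and up to 3 others were named. Rps6ka2, Rps6ka3, Rps6ka5, Mapk3, Mapk8, Creb1, Nr4a3, Egr2, Klf10, Irf1, Nfil3, Per1, Mt2, Maf and Dusp8 were chosen after their values were seen. Genes like the members were the 5 with the highest Pearson r among genes of at least 5 CPM.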

Additional observations from a re-analysis of the deposited data

How the results depend on the processing

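Nr4a2 passed in all 18 alternatives and Junb in 9; Jun passed in 4, Fos and Ier2 in 1 each (library totals), and Atf3, Jund and Nr4a1 in none. With library totals, 5 members passed lower, 4365 genes passed lower and 246 higher, 56 pathway genes passed lower and 0 higher, and Jund was at -0.052; this scaling moves the median of all genes to -0.28. Limma-voom passed 1 member lower, with and without sample weights. DESeq2 passed 595 genes lower and 0 pathway genes higher, and upper quartile scaling 0 pathway genes higher. Without a filter, 24 pathway genes passed lower. With 1 library left out, 1 to 2 members passed lower and 0 higher, 599 to 834 genes passed lower and 561 to 677 higher, 6 to 12 pathway genes passed lower and 0 to 2 higher, and Nr4a1 ranged from -0.17 to 0.19. With GC content and length removed, 2 members passed lower. The cause of these changes was not tested. Same-numbered libraries of the groups did not deviate together (r = -0.04, 0.02 and -0.09). The labels do not state a pairing by number, and these values cannot exclude one. With the replicate block 2 members passed lower, 896 genes lower and 712 higher. Depth limits Fosb, Egr1 and Fos most, with 28, 35 and 81 counts over all 6 libraries.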
